A study of Homo sapiens with 4 samples.

Results

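The kinases described here are the CLK, SRPK and DYRK kinases that phosphorylate SR proteins, chosen by gene symbol as CLK1, CLK2, CLK3, CLK4, SRPK1, SRPK2, DYRK1A and DYRK1B, and these 8 genes were found among 58302 genes in the data. HepG2, a human hepatocellular carcinoma cell line labelled wild type, was cultured with 1 mM melatonin or with the solvent DMSO for 24 h or 48 h. Polyadenylated RNA of each of the 4 conditions was sequenced as 1 library, so the variation between cultures of 1 condition is not known. Expression was given by the authors as FPKM (fragments counted on a gene, divided by its length and by a library size). Read numbers and that library size were worked out from the step between values. The question addressed was how the mRNA of these kinases differed between melatonin and DMSO and between 24 h and 48 h, in a study of melatonin and alternative splicing.

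SR proteins bind exons and recruit the splicing machinery, and their activity and location depend on phosphorylation of a tail rich in arginine and serine. SRPK1 and SRPK2 act largely in the cytoplasm and phosphorylate SR proteins for import into the nucleus. The CLK kinases act in the nucleus, where further phosphorylation releases SR proteins from nuclear speckles, and CLK transcripts are themselves known to be alternatively spliced. DYRK1A and DYRK1B belong to a related family, and besides splicing factors they phosphorylate cell cycle proteins. DYRK1A phosphorylates LIN52, a step in the assembly of the DREAM repressor complex, and DYRK1B is known as a kinase of quiescent cells.

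The libraries held between 21616676 and 23086025 reads on genes. In each library the size by which FPKM was divided was smaller than its reads on genes. As a fraction of those reads it was 0.8492 (DMSO) and 0.8877 (melatonin) at 24 h, and 0.9499 (DMSO) and 0.973 (melatonin) at 48 h. The FPKM ratios between libraries and their intervals, mainly those of 48 h to 24 h, include this difference. Its cause was not tested. Mitochondrial genes held 19.96% (DMSO) and 16.6% (melatonin) of reads at 24 h, against 9.77% (DMSO) and 11.9% (melatonin) at 48 h. With library sizes that leave these genes out, the log2 fold change of CLK1 over time with DMSO was 1.52 in place of 1.53. For melatonin at 48 h, that of CLK1 was -0.80 in place of -0.86, and that of DYRK1B was 1.07 in place of 0.99. Other scalings moved CLK1 over time further. With the plain sum of reads it was at 1.66 (DMSO) and 1.13 (melatonin, in place of 1.02). On TPM, which rescales FPKM to the same sum in each library, it was at 2.09 and 1.36. The median of all genes tested rose as well, to 0.14 and 0.08 with the plain sum and to 0.46 and 0.23 on TPM. All 8 hepatocyte markers looked up (AFP, ALB, APOA1, APOB, TTR, SERPINA1, TF and FGB) were at an FPKM of 41.9 or more in each library. Their summed FPKM ran from 7369 to 9327, but single markers differed more. At 48 h TTR was at 256 with melatonin and 50.6 with DMSO. AFP was at 782 and 1902, TF at 388 and 740, and ALB at 2717 and 2760. Of 7 markers of other cells, only EPCAM, an epithelial gene, reached an FPKM of 1 in any library, the summed FPKM of the list was 37.4 to 64.6, and CD3E and COL3A1 were listed at 0 in all of them. Intervals below are 95% exact intervals of the recovered reads, Poisson for a level and binomial for a ratio, and they cover counting error only.

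CLK1 had the widest range of the 8 kinases, and its promoter is shown here beside that of SRSF5, the SR protein gene whose pattern over the libraries was close to that of CLK1, and that of DYRK1B, the kinase with the next widest range. The sequences are the 250 bases before the transcript start in RefSeq on GRCh38.p14, on the strand of the gene, at chr2:200864659-200864908 (minus strand) for CLK1, chr14:69766892-69767141 (plus strand) for SRSF5 and chr19:39834163-39834412 (minus strand) for DYRK1B. Capitals mark a half-site of the cAMP response element (TGACG on either strand) or an E-box (CACGTG).
CLK1: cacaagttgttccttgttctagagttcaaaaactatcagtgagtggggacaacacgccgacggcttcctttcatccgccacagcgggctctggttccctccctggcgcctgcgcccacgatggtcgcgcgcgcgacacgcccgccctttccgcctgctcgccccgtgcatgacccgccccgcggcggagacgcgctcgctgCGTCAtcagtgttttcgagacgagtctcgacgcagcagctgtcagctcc
SRSF5: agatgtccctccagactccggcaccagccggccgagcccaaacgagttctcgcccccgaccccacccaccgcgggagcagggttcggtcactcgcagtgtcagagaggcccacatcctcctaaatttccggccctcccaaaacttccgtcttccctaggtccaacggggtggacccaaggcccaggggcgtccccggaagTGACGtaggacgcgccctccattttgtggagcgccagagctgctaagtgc
DYRK1B: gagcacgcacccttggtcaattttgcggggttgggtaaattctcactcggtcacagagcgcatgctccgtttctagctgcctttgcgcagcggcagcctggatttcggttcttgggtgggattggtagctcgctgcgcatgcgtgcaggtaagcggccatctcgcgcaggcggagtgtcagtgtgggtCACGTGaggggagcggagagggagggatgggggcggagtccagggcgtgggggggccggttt
The half-site began 49 bases before the start in CLK1 and 50 bases before it in SRSF5, on opposite strands. The E-box of DYRK1B began 62 bases before the start. CLK1 had 2 entries, and the start nearest to that of the deposited gene was used. The deposited gene reaches to 200864744, inside the window, so the position given for CLK1 depends on the start chosen. Of all 35116 such windows, 21.2% held TGACG and 6.34% held CACGTG. In the windows of the other kinases TGACG was also present in CLK4, and CACGTG in CLK2 and in CLK4, where it overlapped the half-site. TTTGAA, also searched on both strands, was in the windows of CLK1 and SRPK2 and in 13.3% of all windows. The motifs were chosen after the data and the sequences had been seen, and a match describes the letters of the window only.

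The levels of the 8 kinases spanned a wide range. SRPK1 was the most abundant in all 4 libraries by FPKM, at 27.8 (DMSO) and 27.6 (melatonin) at 24 h and at 23.5 (DMSO) and 22.2 (melatonin) at 48 h. At 24 h with DMSO it was followed by CLK2 at 7.32 and CLK1 at 7.26, whose intervals overlapped, then by SRPK2 at 4.55 and DYRK1A at 4.26, which also overlapped. CLK3 at 2.46, CLK4 at 1.51 and DYRK1B at 0.597 came last and did not overlap. At 48 h with DMSO the order changed through CLK1, which at 22.8 overlapped with SRPK1 and was well above CLK2 at 10.4, and DYRK1A at 5.92 was above SRPK2 at 4.92 with no overlap. The plot of FPKM by library shows these levels with their intervals.

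**Figure D1:**
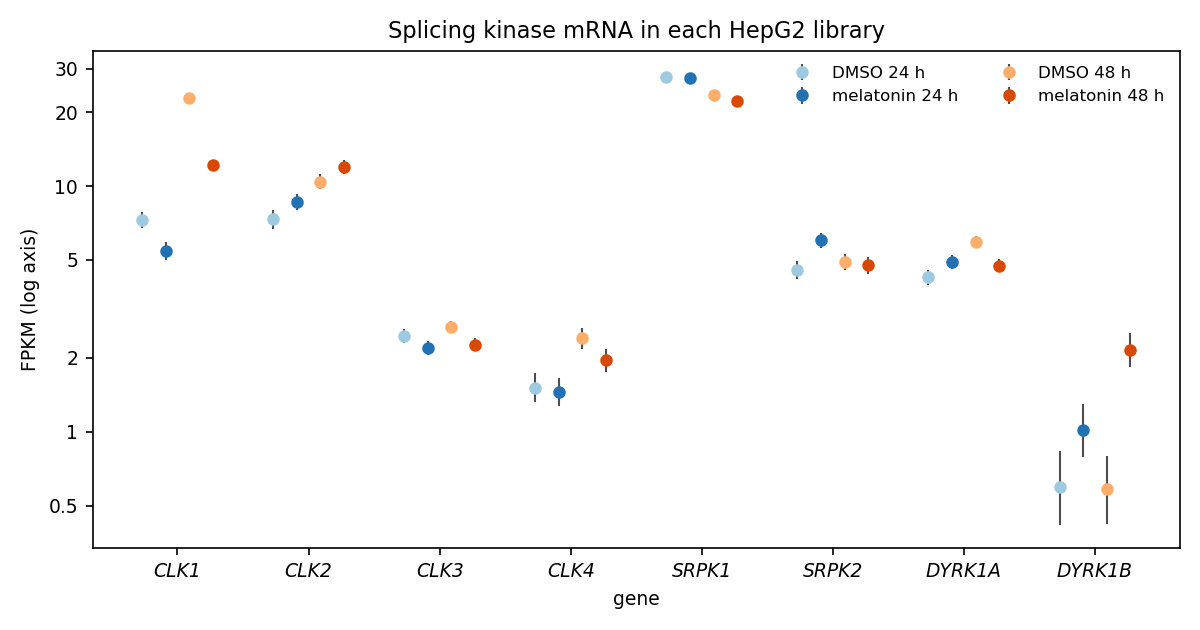
FPKM (log axis) of each kinase in the 4 HepG2 libraries, 1 library per condition, with 95% exact Poisson intervals of the recovered reads as bars. CLK1 ran from 5.45 to 22.8, DYRK1B was above 2 only with melatonin at 48 h, and SRPK1 stayed between 22.2 and 27.8.

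The order of the levels depended on the gene length used for FPKM. For CLK3 the deposited length was 20443 bp, which is 11.03 times the 1854 bp of its MANE Select transcript in GENCODE 44, and for CLK1 it was 5170 bp against 1847 bp. For DYRK1A the deposited length of 10213 bp was 0.5999 of the 17024 bp of its MANE Select transcript. Series of 4 values are given from here on with the 24 h libraries first and DMSO before melatonin at each time. Divided by the transcript lengths, which were tried only once the values were known, CLK3 was at 27.1, 24.1, 29.5 and 24.9. On that scale CLK3 came behind SRPK1, at 42.8, and ahead of CLK1, at 20.3, with DMSO at 24 h, and CLK1 was the most abundant with DMSO at 48 h, at 63.8. Reads that fall outside these transcripts are counted in both scales, and comparisons of 1 gene between libraries do not depend on the length except through the pseudocount.

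CLK1 (ENSG00000013441, chr2:200853009-200864744 of hg38, minus strand) encodes a nuclear kinase that phosphorylates SR proteins and itself. Its FPKM was 7.26 (6.73 to 7.82), 5.45 (5.02 to 5.92), 22.8 (21.9 to 23.7) and 12.1 (11.5 to 12.8), from 689, 572, 2586 and 1392 reads. The 48 h libraries lay above the 24 h libraries, melatonin lay below DMSO at both times, and no interval overlapped another. The ratio of melatonin to DMSO was 0.751 (0.671 to 0.841) at 24 h and 0.532 (0.498 to 0.568) at 48 h. Between the times, the DMSO libraries had a ratio of 48 h to 24 h of 3.14 (2.89 to 3.42) and the melatonin libraries of 2.22 (2.02 to 2.45). The comparisons of melatonin at 48 h and of time with DMSO share the DMSO library of 48 h, in which CLK1 was highest.

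Fold changes were put on the log2(FPKM + 1) scale, where differences of weakly expressed genes come out too small, and the threshold was a difference of 1 (2-fold) in either direction. CLK1 was past that threshold for time, at 1.53 with DMSO and 1.02 with melatonin, and not for melatonin, at -0.36 at 24 h and -0.86 at 48 h. Between 24 h and 48 h with DMSO 7.74% of 13854 tested genes were past the threshold, 3.5% as higher and 4.24% as lower at 48 h, and 107 of them had a larger log2 fold change than CLK1. With melatonin 4.15% of 13489 genes were, 2.45% as higher and 1.71% as lower at 48 h, and 303 genes were above CLK1. For melatonin against DMSO at 48 h, 652 of 13805 genes had a lower log2 fold change than CLK1. CLK1 was the only kinase of the 8 past the threshold in either comparison of times at the main settings.

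CLK4 (chr5:178602664-178630615, minus strand), the closest paralog of CLK1, was lower in level and moved less. Its FPKM was 1.51, 1.46, 2.41 and 1.96, from 220, 234, 418 and 344 reads, so that the 48 h libraries were higher and the intervals of the 24 h libraries overlapped. The ratio of 48 h to 24 h was 1.59 (1.35 to 1.88) for DMSO and 1.34 (1.13 to 1.59) for melatonin, and that of melatonin to DMSO was 0.963 (0.797 to 1.16) at 24 h and 0.813 (0.703 to 0.940) at 48 h. Within a library the ratio of CLK1 to CLK4 does not depend on the library size, and it was 4.80 (4.12 to 5.61), 3.75 (3.21 to 4.38), 9.48 (8.55 to 10.5) and 6.20 (5.51 to 7.00). Relative to CLK4, CLK1 was highest with DMSO at 48 h and lowest with melatonin at 24 h, and its intervals with DMSO and melatonin at 24 h overlapped.

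CLK2 (chr1:155262868-155278491, minus strand), another nuclear SR protein kinase, differed in the other direction with melatonin. Its FPKM was 7.32, 8.62, 10.4 and 12.0, from 493, 642, 839 and 975 reads, so that it was higher with melatonin at each time and higher at 48 h with each treatment. The ratio of melatonin to DMSO was 1.18 (1.05 to 1.33) at 24 h and 1.15 (1.05 to 1.26) at 48 h. CLK3 (chr15:74598500-74645414, plus strand), which is known for a role in testis besides its general expression, was lower with melatonin, at an FPKM of 2.46, 2.18, 2.68 and 2.26 from 906 to 1201 reads. Its ratio of melatonin to DMSO was 0.889 (0.811 to 0.976) at 24 h, where the direction turned when FPKM was rescaled to TPM, and 0.845 (0.776 to 0.919) at 48 h. The ratio of CLK2 to CLK3 within a library was 2.98, 3.95, 3.89 and 5.29, and for melatonin against DMSO the intervals did not overlap at either time. By the MANE Select lengths the ratio was 0.460, 0.610, 0.601 and 0.817, so that CLK3 was the higher, while the order of the libraries does not depend on the length.

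Summed over the 4 CLK genes, FPKM was 18.5 (DMSO) and 17.7 (melatonin) at 24 h and 38.3 (DMSO) and 28.3 (melatonin) at 48 h. CLK1 made up 39.1%, 30.8%, 59.5% and 42.8% of that sum, the largest share being with DMSO at 48 h. These sums and shares rest on the deposited lengths and were not worked out by the MANE Select lengths. By the latter CLK3 was above CLK1 at 24 h, at 27.1 and 24.1 against 20.3 and 15.3. At 48 h it was below CLK1, at 29.5 and 24.9 against 63.8 and 33.9. By the deposited lengths the intervals of the ratio of CLK1 to CLK2 included 1 with DMSO at 24 h (ratio 0.992, 0.882 to 1.12) and with melatonin at 48 h (1.01, 0.933 to 1.101), and CLK1 was the higher with DMSO at 48 h (2.19, 2.02 to 2.37) and the lower with melatonin at 24 h (0.632, 0.564 to 0.709). By the MANE Select lengths the ratio was 1.63, 1.04, 3.59 and 1.66, and CLK1 was not the lower in any library.

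**Figure D2:**
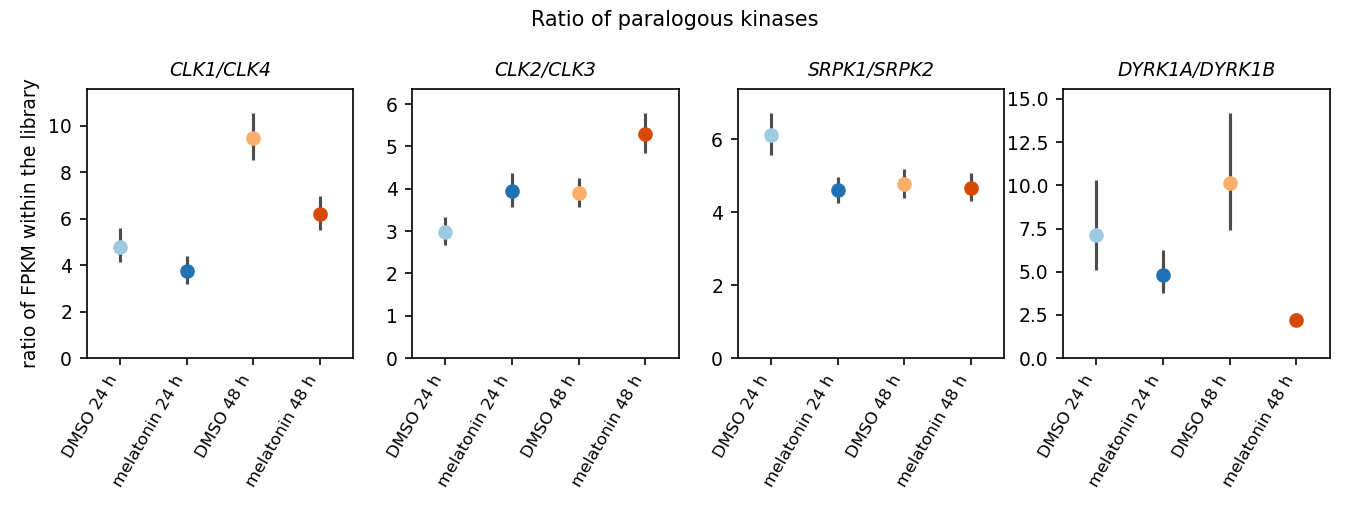
Ratio of FPKM, by the deposited gene lengths, of paralogous kinases within each of the 4 libraries (vertical axes from 0, a separate scale per panel), with 95% exact binomial intervals of the recovered reads as bars. The ratio of CLK1 to CLK4 was highest with DMSO at 48 h, at 9.48, and that of DYRK1A to DYRK1B was lowest with melatonin at 48 h, at 2.20.

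SRPK1 (chr6:35832966-35921342, minus strand), the major cytoplasmic SR protein kinase, had 3300 to 3753 reads. The ratio of melatonin to DMSO was 0.994 (0.949 to 1.04) at 24 h and 0.946 (0.902 to 0.993) at 48 h, and on the log2 scale of TPM the difference at 24 h was 0.16. The ratio of 48 h to 24 h was 0.844 (0.805 to 0.885) with DMSO, where the direction turned on TPM, and 0.803 (0.766 to 0.842) with melatonin. SRPK2 (chr7:105110704-105399308, minus strand), its paralog, had an FPKM of 4.55, 6.01, 4.92 and 4.76, from 530, 773, 684 and 670 reads. The library with melatonin at 24 h was above the other 3, whose intervals overlapped. The ratio of melatonin to DMSO was 1.32 (1.18 to 1.48) at 24 h and 0.967 (0.868 to 1.08) at 48 h. The ratio of SRPK1 to SRPK2 was 6.11 (5.57 to 6.71) with DMSO at 24 h and between 4.60 and 4.77 in the other libraries.

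DYRK1A (chr21:37365790-37517450, plus strand), which acts on LIN52 and on splicing factors, had an FPKM of 4.26 (3.97 to 4.56), 4.91 (4.61 to 5.22), 5.92 (5.61 to 6.25) and 4.74 (4.46 to 5.03), from 798 to 1327 reads. It was higher with melatonin at 24 h, with a ratio of 1.15 (1.05 to 1.27), and lower at 48 h, with a ratio of 0.8001 (0.738 to 0.868). With DMSO the ratio of 48 h to 24 h was 1.39 (1.27 to 1.52), and with melatonin it was 0.966 (0.885 to 1.05).

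DYRK1B (chr19:39825350-39834201, minus strand) was the lowest of the kinases at 24 h, and it was highest with melatonin. Its FPKM was 0.597 (0.416 to 0.831), 1.02 (0.788 to 1.30), 0.586 (0.420 to 0.795) and 2.16 (1.83 to 2.53), from 35, 66, 41 and 153 reads. The DMSO libraries overlapped each other, and the melatonin library of 48 h was above the other 3. The ratio of melatonin to DMSO was 1.71 (1.12 to 2.65) at 24 h and 3.69 (2.60 to 5.34) at 48 h. On the log2(FPKM + 1) scale these were differences of 0.34 and 0.99, the latter just under the threshold of 1, and with a pseudocount of 0.1 the difference at 48 h was 1.72 and past it. DYRK1B reached an FPKM of 1 only in the melatonin libraries, so it entered the tested genes through the condition in which it was high, and it was not tested between the DMSO libraries. The ratio of DYRK1A to DYRK1B was 7.13 (5.08 to 10.3), 4.82 (3.75 to 6.28), 10.1 (7.42 to 14.2) and 2.20 (1.85 to 2.62). By the MANE Select lengths it was 3.34, 2.26, 4.75 and 1.03.

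Over the 8 kinases, no member was past the 2-fold threshold for melatonin at 24 h, where 4.35% of 13582 genes were (1.42% higher and 2.93% lower), nor at 48 h, where 5.72% were (2.39% higher and 3.32% lower). The median log2 fold change of the 8 was 0.08 at 24 h and -0.12 at 48 h, against 0.02 and -0.02 for all tested genes. For 48 h over 24 h the median of the 8 was 0.24 (DMSO) and 0.15 (melatonin), against 0.0041 and -0.04 for all tested genes. With DMSO the 8 include DYRK1B, at -0.01, which was not tested, so that median and the one of tested genes cover unlike sets. With melatonin at 24 h the interval of the ratio was above 1 for 4 kinases and below 1 for 2 of 8, where all tested genes gave 28.2% above and 22.4% below (50.6% together). At 48 h it was above 1 for 2 kinases and below 1 for 5 of 8, against 29.1% and 33.1% of all tested genes (62.2% together). At both times the kinases above 1 include DYRK1B, which was tested only through its melatonin library, so its place there supports nothing. For 48 h over 24 h with DMSO the interval was above 1 for 4 kinases and below 1 for 1 of the 7 tested, against 32.5% and 32.1% (64.5% together). With melatonin it was above 1 for 4 and below 1 for 2 of 8, against 22.4% and 32.8% (55.2% together). These splits moved with the scaling. On TPM, with 8 kinases tested, 7 were above 1 and 0 below over time with DMSO, and 6 above and 0 below with melatonin. The median log2 fold change of all tested genes was also higher on TPM, at 0.46 (DMSO) and 0.23 (melatonin). The shares of all tested genes were not worked out on TPM, so these counts have nothing to be set against. Differences beyond counting error were thus common among all tested genes, and with 1 library per condition they cannot be told apart from variation between cultures.

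**Figure D3:**
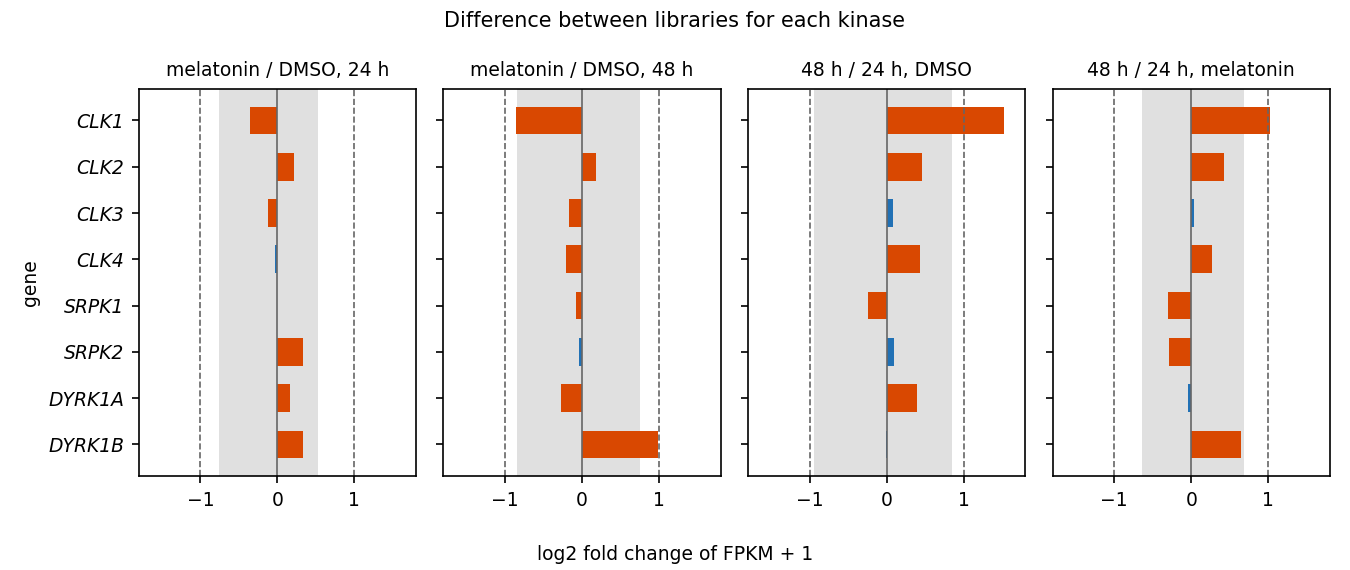
Log2 fold change of FPKM + 1 of each kinase (horizontal axes) in the 4 comparisons, with 1 library on each side. Orange bars mark ratios whose 95% interval excludes 1 and blue bars the others, dashed lines the 2-fold threshold and grey bands the range from percentile 5 to percentile 95 of all tested genes. CLK1 for time and DYRK1B for melatonin at 48 h lay outside the band, as did CLK1 for melatonin at 48 h.

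A fit over all 4 libraries with limma, with treatment and time as additive terms, left 1 residual degree of freedom. It was the difference between the times in the response to melatonin. Limma moderated the spread of each gene toward that of other genes, with a prior of 3.82 degrees of freedom (19.1 with voom). The SE and p-values below thus rest largely on the spread of other genes, not on that of the kinase alone. For melatonin averaged over the times CLK1 had a log2 fold change of -0.61 (SE 0.17, adjusted p = 0.195 by limma) and was lower with melatonin at both times. DYRK1B had 0.67 (SE 0.23, adjusted p = 0.242 by limma). It passed the minimum FPKM of the fit only through the melatonin libraries, in which it was high, so its values for melatonin by limma and by voom are a description and support nothing. No kinase passed an adjusted p of 0.05 for melatonin, nor did any of the 13128 genes tested (0%), and 2 of the 8 kinases (CLK1 and DYRK1B) and 2388 genes (18.2%) had an unadjusted p under 0.05. For 48 h against 24 h averaged over the treatments CLK1 had 1.28 (SE 0.17, adjusted p = 0.0825 by limma) and CLK2 0.44 (SE 0.12, adjusted p = 0.125 by limma). None of the 8 passed, nor did any gene (0%), with 2 kinases (CLK1 and CLK2) and 3387 genes (25.8%) at an unadjusted p under 0.05. With limma voom on the recovered reads, an alternative that weights genes by depth, 2 kinases were under an adjusted p of 0.05 for melatonin, CLK1 at -0.64 (adjusted p = 0.0241) and DYRK1B, with that limit, at 1.46 (adjusted p = 0.0117), along with 1158 of 13128 genes. By voom 3 kinases passed for time, CLK1, CLK2 and CLK4, all higher at 48 h, along with 2337 of 13128 genes. Of these genes 1617 were higher and 720 lower at 48 h. Voom scaled by the plain sum of reads on the tested genes. With it the median log2 fold change of all tested genes for time was 0.13, against -0.02 at the main settings.

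The genes most alike CLK1 over the 4 libraries, by the distance between centred log2(FPKM + 1) values among 11350 genes with at least 50 reads in each library, were KIF5A, SRSF5 and QRICH2. SRSF5, an SR protein of the class that CLK kinases phosphorylate, was at an FPKM of 16.9, 14.0, 56.0 and 29.7 and at a distance of 0.11. Its ratio of melatonin to DMSO was 0.830 (0.774 to 0.891) at 24 h and 0.531 (0.510 to 0.553) at 48 h, beside 0.751 and 0.532 for CLK1. Its ratio of 48 h to 24 h with DMSO was 3.32 (3.14 to 3.504), beside 3.14 for CLK1. KIF5A, a neuronal kinesin, was at 1.04, 0.606, 4.53 and 2.26. For DYRK1B the nearest genes were PTPRN2, RECK and DPYSL2, and RECK, an inhibitor of matrix metalloproteinases, was at 1.22, 2.06, 1.28 and 3.34. DYRK1B itself had 35 (24 h) and 41 (48 h) reads with DMSO, under the minimum of 50 asked of the genes compared with it. The points of each pattern share their libraries, and a likeness over 4 libraries is a description only.

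**Figure D4:**
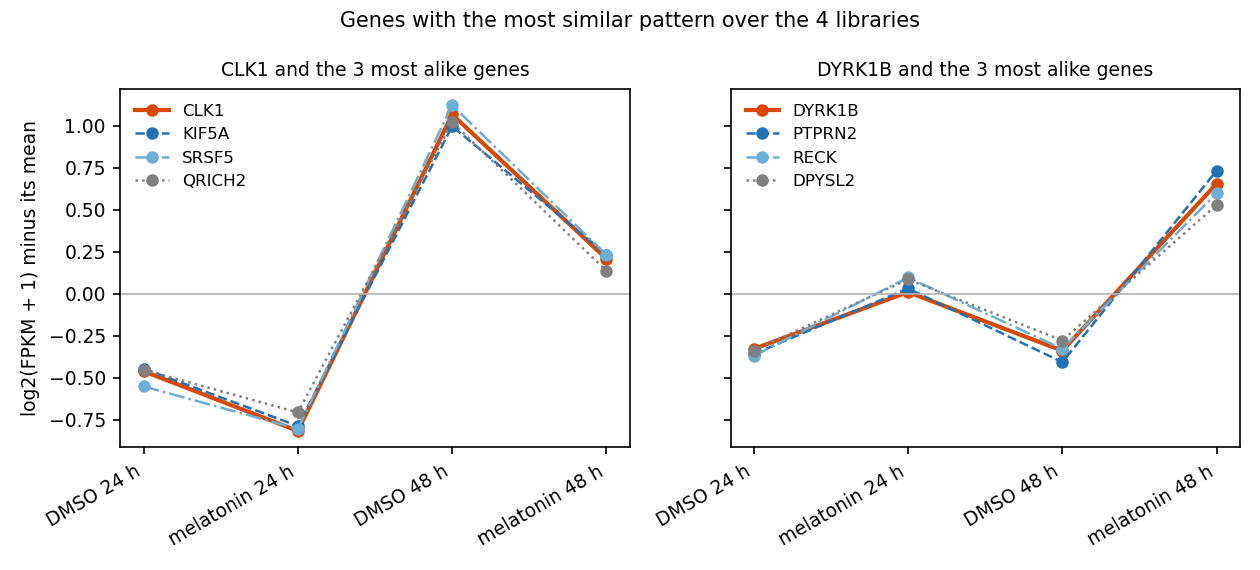
Log2(FPKM + 1) minus its mean over the 4 libraries (vertical axis) for CLK1 and DYRK1B and for the 3 genes nearest to each, with 1 library per condition on the horizontal axis. CLK1 and SRSF5 were highest with DMSO at 48 h, and DYRK1B and its neighbours with melatonin at 48 h.

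Of the SR proteins, the substrates of these kinases, 13 of 14 were tested in each comparison. With melatonin 11 of the 13 were lower than with DMSO at 24 h (median -0.19), but on TPM 8 of 14 were (median -0.02, against 0.17 for all tested genes). At 48 h 11 of 13 were lower (median -0.29), and 13 of 14 on TPM (median -0.32). None was past the 2-fold threshold for melatonin. The interval of the ratio was below 1 for 10 of them at 24 h and for 11 at 48 h, and it was below 1 for 22.4% and 33.1% of all tested genes. For time, SRSF5 alone of the 13 was past the threshold, with DMSO (1.67) and with melatonin (1.03). Of all tested genes 7.74% (DMSO) and 4.15% (melatonin) were. On TPM 3 of 14 SR proteins were with DMSO, where 20.3% of all tested genes were. Fewer cells with a transcript and less RNA per cell cannot be told apart in these bulk libraries.

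Other genes of the pathway were taken from lists chosen by function. Of 15 related kinases (other DYRK and SRPK genes, the HIPK genes, PRPF4B, CDK11A, CDK11B, CDK12, CDK13, CSNK2A1 and TOP1) 10 were tested, and none was past the 2-fold threshold in any comparison at the main settings, with medians of 0.11 and -0.08 for melatonin at 24 h and 48 h. Of the phosphatases and import factors of SR proteins (PP1 and PP2A subunits, TNPO1 and TNPO3) all 10 were tested, none was past the threshold, and the medians were 0.03 and -0.02. Of 17 subunits of the DREAM complex and other partners or targets of the DYRK kinases 15 were tested, again with none past the threshold. Their median for melatonin was -0.03 at 24 h and 0.02 at 48 h. For 48 h over 24 h it was -0.23 (DMSO) and -0.24 (melatonin), while on TPM it was 0.28 and 0.08, against 0.46 and 0.23 for all tested genes.

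Some of these values can include reads of other genes. The strand of the libraries is not given in the sources used here, and CLK3 overlaps EDC3 on the opposite strand over 14857 bp of the gene span, CLK2 overlaps HCN3 over 909 bp and SRPK2 overlaps KMT2E over 3658 bp. EDC3 had 872 to 979 reads, HCN3 165 to 299 and KMT2E 811 to 1206. Of all 50-base words in the MANE Select transcripts, none of CLK1 or CLK4 occurred in a GENCODE 44 transcript of another gene. For CLK2 6.13% occurred in the pseudogene CLK2P1, which had 0 to 7 reads, and for SRPK1 42.7% lay opposite to LHFPL5, which had 0 to 2 reads. For DYRK1B 12.5% occurred in a gene with no symbol, ENSG00000291312. The FPKM are totals of a gene and do not tell its splice forms apart.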

How the data were processed

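The authors purified polyadenylated RNA and, by their methods, used MapSplice for alignment of read pairs (hg38) and Cufflinks for expression. The submitters' processing notes also list Bowtie2 2.0.6, TopHat2 2.0.9, Cufflinks 2.1.1 and Cuffdiff 2.1.1. The authors deposited FPKM per Ensembl gene with the gene length, for which the method is not stated. Multiplied by length, 100% of the FPKM above 0 fell on multiples of a step (tolerance 0.1 of a read), which gave the reads and the library size. Fold changes were log2((FPKM + 1)/(FPKM + 1)), tested where either library reached an FPKM of 1, and called at 2-fold. Limma 3.58.1 was fitted to genes that reached an FPKM of 1 in 2 or more libraries, with Benjamini-Hochberg adjustment over all genes tested. Samples were grouped by the labels. The members, lists and motifs were chosen with earlier results of these data known. Named from the other lists were genes past the 2-fold threshold, and as alike the 3 nearest genes of each kinase with a range of at least 0.8. Of the 8 genes 6 had the same coordinates in GENCODE 44. Scripts (Python 3.11, R 4.3.3) were tested on simulated data. Alternatives are given in the closing section. Isoforms were not analysed here.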

Additional observations from a re-analysis of the deposited data

Results flagged for a closer look

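DYRK1A differed in the direction of its melatonin effect between the times, since it was higher with melatonin at 24 h and lower at 48 h and both ratios were beyond counting error. On the log2 scale of the plain FPKM ratio the effect was 0.21 at 24 h and -0.32 at 48 h, a difference of -0.53 with a 95% interval from counting error of -0.70 to -0.35. With 1 library per condition this difference was not tested against a spread between cultures.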

How the results depend on the processing

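No paired analysis was possible because each condition has 1 library and the labels give no replicate numbers, and for the same reason no library could be left out of a comparison. The additive fit without 1 library would leave no residual degree of freedom. For melatonin at 48 h, 0 of the 8 kinases were past the threshold at the main settings, where 5.72% of all tested genes were. With a pseudocount of 0.1 only DYRK1B was (12.1% of all tested genes). The same held with centring on the median (5.60%), with TPM (13.5%) and with library sizes that leave out mitochondrial genes (6.04%). At a 1.5-fold threshold 2 kinases were, CLK1 and DYRK1B (18.7%). On FPKM, DYRK1B was tested here only through its melatonin library. For 48 h over 24 h with melatonin, CLK1 was past the threshold at the main settings, where 4.15% of all tested genes were. CLK1 and DYRK1B, 2 kinases, were with a pseudocount of 0.1 (8.60%), at 1.5-fold (12.8%) and with TPM (11.8%). The counts for melatonin at 24 h (0) and for time with DMSO (1, CLK1) were the same in each setting run. The share of all tested genes ran from 1.64% to 11.6% for the former and from 3.84% to 23.8% for the latter. By limma, in place of 0 of 8 kinases, 2 passed for melatonin with voom (CLK1, and DYRK1B, which the minimum kept only through the melatonin libraries). For time 1 of the 3 kinases tested passed at a minimum FPKM of 5, 2 of 8 with TPM and 3 of 8 with voom. Over all genes limma called 0 of 13128 for melatonin at the main settings. It called 310 of 7079 at a minimum FPKM of 5, 310 of 16857 with TPM and 1158 of 13128 with voom. For time it called 0, 1137, 1655 and 2337 of the same totals. TPM moved the median log2 fold change of all tested genes to 0.17 for melatonin at 24 h, and for time to 0.46 (DMSO) and 0.23 (melatonin). The plain sum of reads moved it to 0.14 for time with DMSO. Among differences beyond counting error, TPM turned the direction for CLK3 with melatonin at 24 h (0.0042) and for SRPK1 over time with DMSO (0.26). Among those within counting error or not tested, TPM turned CLK4 (0.09) and SRPK1 (0.16) with melatonin at 24 h, DYRK1A over time with melatonin (0.21) and DYRK1B over time with DMSO (0.28), and so did the plain sum of reads for these 4. Library sizes without mitochondrial genes turned DYRK1A over time with melatonin (0.0023) and SRPK2 with melatonin at 48 h (0.02). Over time with DMSO the intervals above and below 1 were 4 and 1 kinases at the main settings, 7 and 0 with TPM and 6 and 1 with the plain sum, and with melatonin 4 and 2, 6 and 0, and 5 and 2. For melatonin at 24 h they were 4 and 2, 5 and 1 with TPM, and 3 and 1 with the plain sum, where DYRK1B was not tested. The 4 include DYRK1B, tested only through its melatonin library. The shares of all tested genes with such intervals were not worked out for TPM or the plain sum. Of the recomputed counts of kinases, 50 stayed within 1.5 times the main count and 12 did not. The scalings of the pathway lists were added after the data were seen. The causes of these shifts were not tested. DYRK1B, with 35 to 153 reads, is the kinase whose values are most limited by depth.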
